A study of Mus musculus with 12 samples.

Results

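The genes described here make or handle reactive oxygen, nitric oxide and itaconate in the inflamed colon. There are 9 of them among the 54532 genes of each count file: Duox2, Duoxa2, Nox1 and Noxo1 of the epithelial oxidases, Cybb and Ncf1 of the phagocyte oxidase, Nos2, Sod2 and Acod1. They were chosen by name for their function, with earlier results of these data known. Each was found under its symbol in all 12 libraries, and all 9 passed the filter on low counts. The libraries come from the colon of male C57BL/6 mice, 6 weeks old on arrival, with 3 separate colons in each of 4 groups. The Con group had no dextran sulfate sodium (DSS, a polymer that injures the colon lining when it is drunk). The DSS group drank DSS at 3% (w/v) for 5 days. The UA+DSS group drank the same DSS and received ursolic acid (UA, a triterpenoid of apple peel and herbs) by gavage at 200 mg/kg a day for 7 days, starting 1 day before DSS. The DSS+UA group received the same dose for 4 days, starting 3 days after DSS began. No engineered allele is named for any group, the methods give vehicle gavage to the Con and DSS groups where the labels call the Con mice untreated, and no group had UA without DSS.

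NADPH oxidases pass electrons from NADPH to oxygen and release superoxide or hydrogen peroxide. In the colon, DUOX2 with its maturation factor DUOXA2, and NOX1 with its organizer NOXO1, work at the surface of the epithelium, whereas the heme subunit gp91phox (Cybb) and the organizer p47phox (Ncf1) form the respiratory burst oxidase of neutrophils, monocytes and macrophages. Inducible nitric oxide synthase (Nos2) is switched on by cytokines and bacterial products in macrophages and also in colon epithelium, mitochondrial superoxide dismutase (Sod2) disposes of superoxide, and Acod1 encodes the enzyme that activated myeloid cells use to make itaconate from aconitate.

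Some libraries stood apart from others of their group. DSS 2 held 19418 CPM (counts scaled to a fixed library size) of 10 summed neutrophil markers, against 929 and 1027 CPM in DSS 1 and DSS 3. DSS 3 held 14920 CPM of 7 pancreas acinar markers, against at most 555 CPM in any other library. A position score, the mean log2 CPM of Hox genes of the distal colon minus that of Hox genes of the proximal colon, was -5.70 to -4.16 in UA+DSS, 4.11 to 5.06 in DSS+UA, 0.37 to 3.10 in DSS and -3.03 to 5.53 in Con, so the stretch of colon sampled and the UA+DSS treatment cannot be told apart. The DSS+UA scores lay wholly above the DSS scores, so position and the later UA regimen cannot be told apart in DSS+UA against DSS either. Epithelial markers were present in all libraries, at 7965 to 27672 summed CPM. In whole tissue, fewer cells of a type and less RNA per cell cannot be told apart.

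DSS raised 5 and lowered 1 of the 9 genes. Acod1, Nos2, Ncf1, Cybb and Sod2 exceeded their Con levels and Noxo1 was lower, while Duox2, Duoxa2 and Nox1 did not pass the test. By edgeR's quasi-likelihood test, with p adjusted over the 17658 tested genes and a threshold of 0.05, 13.9% of all tested genes were raised and 12.6% lowered in this comparison. The median log2 fold change was 1.63 over the 9 genes and -0.03 over all tested genes. The number called was 5 to 6 when each library was left out in turn. With limma-voom Nos2 and Acod1 were not called (adjusted p of 0.139 and 0.153), with only these groups fitted Ncf1 and Sod2 were not (0.0572 and 0.0692), and with no filter on low counts Nos2 was not (0.0851).

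With UA begun before DSS, 4 of the 9 genes were lower than in DSS (Acod1, Ncf1, Cybb and Sod2) and 1, Noxo1, was higher. Over all tested genes 10.5% were lowered and 8.21% raised. The median log2 fold change was -1.23 over the 9 genes and -0.02 over all. These calls were sensitive to single libraries: 3 of the 9 genes were called without DSS 2, 2 without UA+DSS 1, 1 without UA+DSS 3 and 0 without UA+DSS 2. With the position score as a covariate 0 of the 9 passed, and the number over all tested genes fell from 3300 to 3.

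With UA begun after DSS, 0 of the 9 genes were called against DSS by edgeR, where 7.54% of all tested genes were called. At an unadjusted p under 0.05 there were 4 (Cybb, Ncf1, Sod2 and Acod1, each with a lower fitted value), DESeq2 called 3 and limma-voom 0. Against Con, the DSS+UA group had 2 genes raised, Acod1 and Duoxa2, where 9.13% of all tested genes were raised and 8.95% lowered. Without Con 1, Con 2, Con 3 or DSS+UA 3 there were 0 calls, without UA+DSS 3, DSS+UA 1 or DSS+UA 2 there was 1, and without DSS 2 there were 4.

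In the UA+DSS group 0 of the 9 genes were called against Con by edgeR, where 0.00566% of all tested genes were called. At an unadjusted p under 0.05 there were 3 (Duox2, Duoxa2 and Nos2, all higher), DESeq2 called 2 and limma-voom 0. Between the UA regimens edgeR likewise called 0 of the 9, where 16.8% of all tested genes were called (7.54% raised and 9.23% lowered in UA+DSS). There was 1 gene at an unadjusted p under 0.05, Acod1, and limma-voom called 0. DESeq2 called 0 of the 7 members to which it gave an adjusted p; it gave none to Nos2 or Acod1 in any comparison, so its counts leave out both. Without DSS 2 or without DSS 3, 1 of the 9 was called in that comparison.

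**Figure D1:**
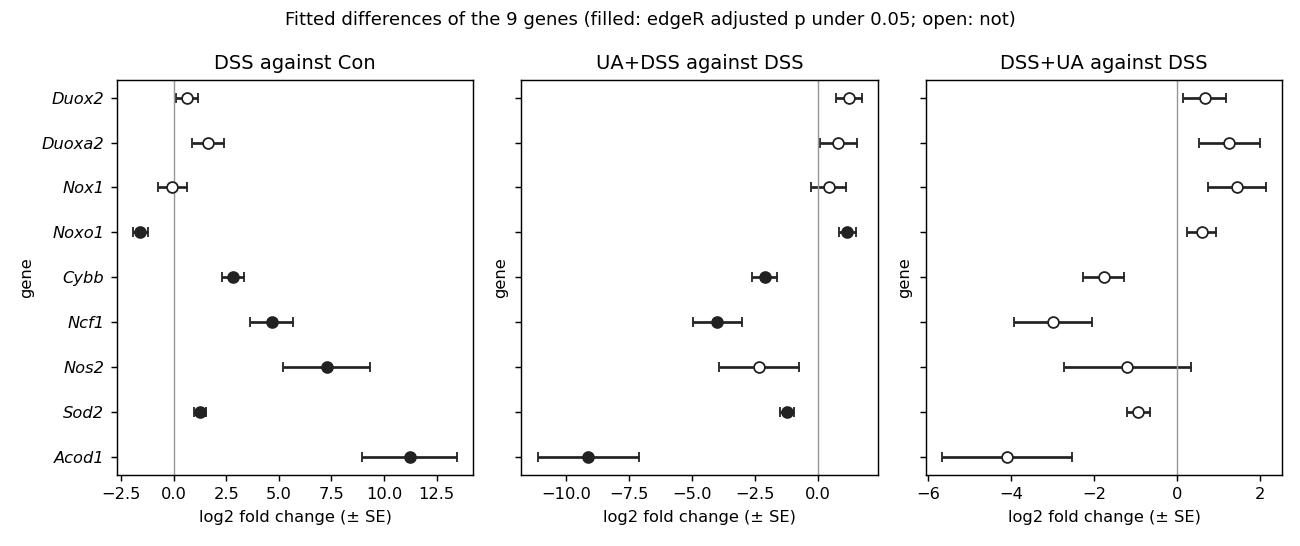
Log2 fold changes of the 9 genes, fitted by edgeR, with the standard error as the bar, in the 3 comparisons that involve the DSS group; the horizontal scales differ between panels. Filled points passed the adjusted threshold: 6 genes in DSS against Con, 5 in UA+DSS against DSS and 0 in DSS+UA against DSS.

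The levels of the 9 genes relative to each other changed with the group. In Con, on the scale of CPM per kb of exon, Duox2 led at 11.2 ± 3.63 (SD, n = 3), followed by Sod2 at 10.2 ± 0.717, Nox1 at 8.36 ± 0.455 and Duoxa2 at 7.67 ± 2.40. Cybb, Ncf1 and Noxo1 were at 2.24, 1.97 and 1.52 CPM per kb there. Nos2 was at 0.308 and Acod1 at 0.0873 CPM per kb, the lowest of the 9. The lead of Duox2 in Con rested on Con 3: without it Sod2 was ahead, at 10.3 against 9.88 CPM per kb. In DSS the means of Acod1, Ncf1 and Nos2 headed the 9, with Acod1 at 215 ± 358 and Nos2 at 47.6 ± 73.3 CPM per kb, so that the SDs exceeded the means. That order rested on DSS 2: without it Duoxa2, Duox2 and Sod2 led, at 24.3, 19.4 and 17.0 CPM per kb. In UA+DSS the mean of Duoxa2, 42.0 ± 43.5 CPM per kb, was next to that of Duox2 at 41.0 ± 28.8, and without UA+DSS 1 Duox2 was ahead, at 24.6 against 17.2 CPM per kb. In DSS+UA the highest mean was that of Duoxa2, at 57.3 ± 51.0 CPM per kb, or 27.8 without DSS+UA 2, where it still led.

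**Figure D2:**
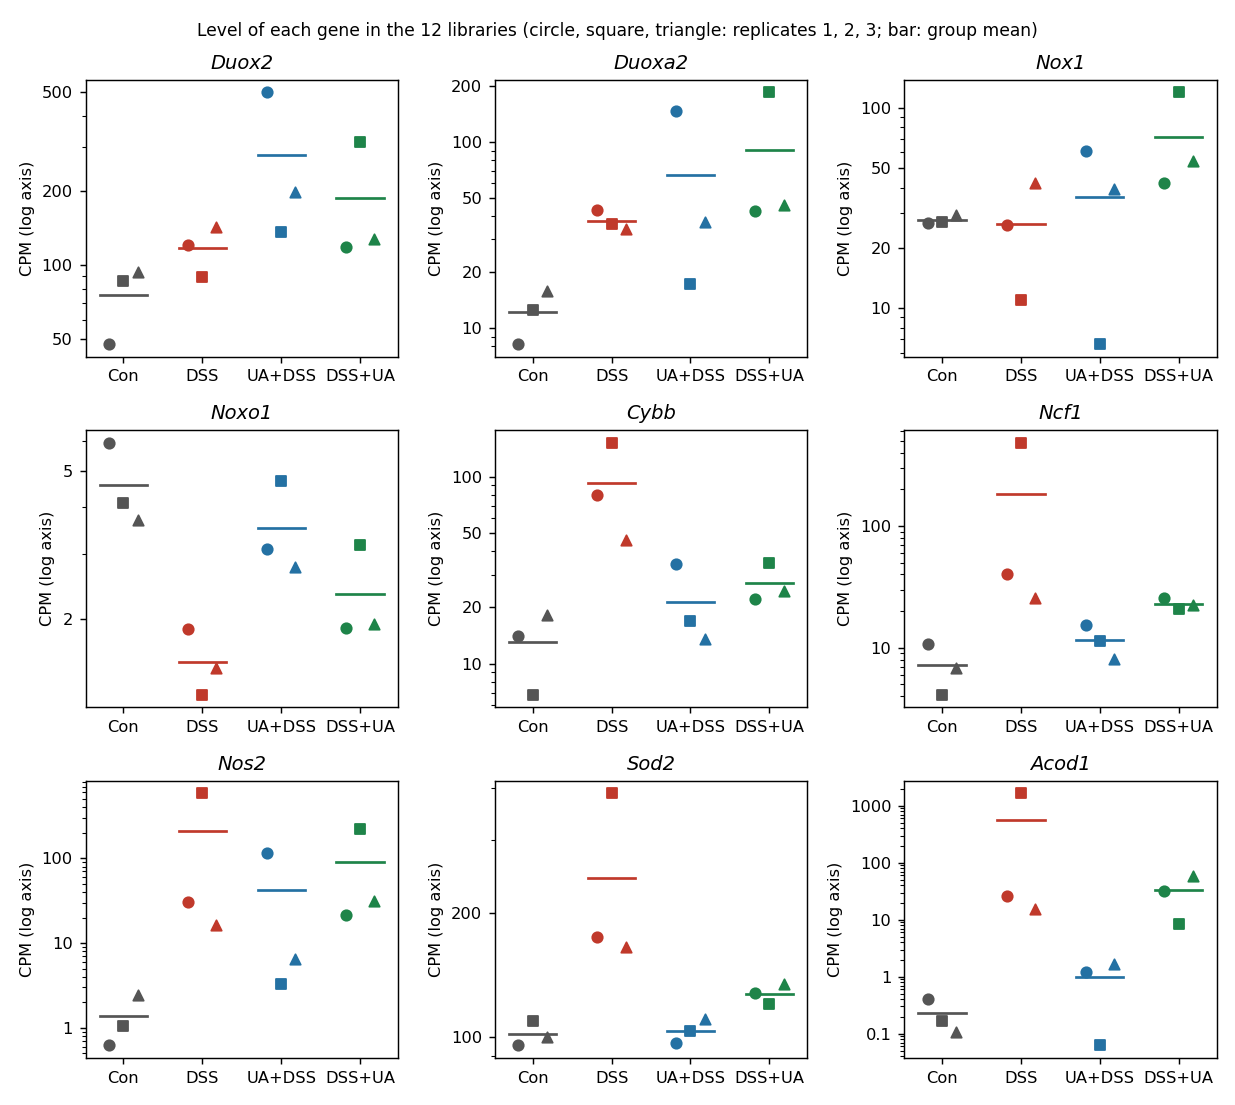
CPM of each gene in the 12 libraries on a log axis, with circle, square and triangle for replicates 1, 2 and 3 and a bar for the group mean. The phagocyte genes, Sod2 and Acod1 peak in DSS 2 (Acod1 at 1647 CPM), whereas Duox2 is highest in UA+DSS 1 (500 CPM) and Duoxa2 and Nox1 in DSS+UA 2 (185 and 120 CPM).

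Duox2 encodes the peroxide-producing oxidase of the epithelial surface. It lies on chromosome 2 at 122279247-122298449 on the minus strand (GRCm38), head to head with Duoxa2 at 122298900-122302885 on the plus strand, and the RefSeq start sites of the pair are 673 bases apart. Their promoters are shown because the pair varied together over the libraries. Each runs from 250 bases before to 50 bases after the RefSeq start site (GRCm38.p6), read 5′ to 3′ on the gene's own strand, with Duox2 at chr2:122298178-122298477 (minus strand) and Duoxa2 at chr2:122298650-122298949 (plus strand).
Duox2: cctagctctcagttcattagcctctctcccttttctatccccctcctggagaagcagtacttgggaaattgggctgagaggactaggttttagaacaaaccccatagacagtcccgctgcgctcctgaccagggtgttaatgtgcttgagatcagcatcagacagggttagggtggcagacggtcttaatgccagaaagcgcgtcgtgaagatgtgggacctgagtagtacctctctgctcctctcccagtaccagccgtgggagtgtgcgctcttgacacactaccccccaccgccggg
Duoxa2: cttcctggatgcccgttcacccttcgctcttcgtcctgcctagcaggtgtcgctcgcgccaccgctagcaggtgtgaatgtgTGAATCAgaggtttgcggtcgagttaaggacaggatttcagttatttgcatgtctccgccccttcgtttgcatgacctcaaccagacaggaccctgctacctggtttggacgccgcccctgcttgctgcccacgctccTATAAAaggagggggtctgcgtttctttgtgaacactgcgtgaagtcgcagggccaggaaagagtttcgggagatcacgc

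Capitals mark matches to any of 7 motifs searched on both strands: NF-kappaB by name, STAT (TTCNNNGAA), interferon regulatory factor or IRF (GAAANNGAA), AP-1 (TGANTCA), the TATA box (TATAAA), antioxidant response (TGACNNNGC) and CEBP (TTGCNNAA). Of 32851 promoters of the same length, 4.51% hold a match to NF-kappaB, 8.3% to STAT, 8.56% to IRF, 7.81% to AP-1, 13.6% to TATA, 12.4% to antioxidant response and 10.8% to CEBP. The Duoxa2 window holds an AP-1 match at -168 and a TATA match at -30, counted from the start site, and the Duox2 window holds no match to these letters.

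Duox2 was measured at 47.7, 86.1 and 93.5 CPM in Con and 120, 89.6 and 143 CPM in DSS. The UA+DSS libraries held 500, 136 and 197 CPM, and the DSS+UA libraries 118, 315 and 127 CPM. Every library of the UA+DSS and DSS+UA groups was above every Con library, while the DSS group overlapped Con through DSS 2. The fitted log2 fold change was 0.63 ± 0.51 (SE) for DSS against Con (edgeR adjusted p = 0.373) and 1.24 ± 0.52 for UA+DSS against DSS (edgeR adjusted p = 0.115). UA+DSS 1 set much of the latter value, which was 0.51 without that library. Against Con the log2 fold change was 1.87 in UA+DSS and 1.30 in DSS+UA, with edgeR adjusted p of 0.265 and 0.0982. These were 1.14 without UA+DSS 1 and 0.70 without DSS+UA 2. In the order of means, UA+DSS, DSS+UA, DSS and Con, no neighbouring groups differed past the threshold.

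Duoxa2, the partner that lets DUOX2 leave the endoplasmic reticulum, had the larger relative spread. Its CPM was 8.22, 12.6 and 15.8 in Con, 43.3, 36.4 and 34.0 in DSS, 146, 17.3 and 37.3 in UA+DSS, and 42.8, 185 and 45.8 in DSS+UA. All 9 libraries with DSS were above all 3 Con libraries. DSS against Con gave a log2 fold change of 1.63 ± 0.76 (edgeR adjusted p = 0.132), which passed (0.0236) only where these groups were fitted alone. DSS+UA against Con gave 2.90 ± 0.79 (edgeR adjusted p = 0.0317), and 1.86 without DSS+UA 2 (edgeR adjusted p = 0.103). This call was also lost without Con 1, Con 2, Con 3 or DSS+UA 3, at edgeR adjusted p of 0.0518 to 0.0868. Against DSS the log2 fold change was 0.82 ± 0.74 in UA+DSS, which turned to -0.47 without UA+DSS 1, and 1.26 ± 0.74 in DSS+UA, which was 0.18 without DSS+UA 2, with edgeR adjusted p of 0.472 and 0.280 over all libraries. Of the 50-base stretches of its exons, 41.1% are shared with Duoxa1, which overlaps it on the opposite strand; whether the counting used strand is not given in the sources used here, and Duoxa1 itself held 0.250 to 4.27 CPM.

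Nox1 encodes the catalytic subunit of the other epithelial oxidase of the colon and lies on chromosome X at 134086421-134221956 (minus strand). Of the 50-base stretches of its exons, 10.4% are shared with Cstf2, whose exons overlap on the opposite strand, and how such reads were assigned was not tested. Nox1 held a narrow 26.6 to 29.4 CPM in Con. The DSS libraries held 25.9, 11.0 and 42.0 CPM, those of UA+DSS 61.3, 6.62 and 39.5 CPM, and those of DSS+UA 42.1, 120 and 54.1 CPM. DSS and UA+DSS libraries fell on both sides of Con, and the DSS+UA libraries lay above Con and, by a margin of 42.1 to 42.0 CPM, above DSS. The log2 fold change was -0.07 ± 0.69 for DSS against Con, 0.45 ± 0.69 for UA+DSS against DSS and 1.45 ± 0.70 for DSS+UA against DSS, with edgeR adjusted p of 0.947, 0.694 and 0.193. The first became 0.30 without DSS 2, the second -0.19 without UA+DSS 1 and the third 0.83 without DSS+UA 2. For DSS+UA against Con it was 1.38 ± 0.70 (edgeR adjusted p = 0.181), and 0.81 without DSS+UA 2.

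Noxo1, the organizer of NOX1 (chromosome 17, 24696234-24700529, plus strand), went the other way in DSS. Its CPM was 5.95, 4.10 and 3.69 in Con, 1.88, 1.25 and 1.48 in DSS, 3.08, 4.69 and 2.76 in UA+DSS, and 1.90, 3.15 and 1.94 in DSS+UA. DSS did not overlap Con or UA+DSS, and its highest library (1.88 CPM) was just under the lowest of DSS+UA (1.90 CPM). The log2 fold change was -1.57 ± 0.35 for DSS against Con (edgeR adjusted p = 0.00949) and 1.19 ± 0.35 for UA+DSS against DSS (edgeR adjusted p = 0.0383). The first held without any single library, and the second was lost without any of the 6 libraries compared or without DSS+UA 3 (edgeR adjusted p of 0.0563 to 0.157). DSS+UA lay between, with log2 fold changes of 0.60 against DSS and -0.98 against Con and edgeR adjusted p of 0.276 and 0.0692. These are low levels, 92 counts in all over the 3 DSS libraries, and 58.5% of the 50-base stretches of Noxo1 exons lie in the antisense gene Tbl3. Tbl3 was at 35.3, 25.1 and 27.7 CPM in DSS and 22.8 to 26.9 CPM in Con. How reads of the shared stretches were assigned was not tested.

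Cybb and Ncf1 of the phagocyte oxidase were raised in DSS together. Their promoters are shown for the IRF motif, which both hold, read as above at chrX:9469275-9469574 (Cybb, minus strand) and chr5:134229576-134229875 (Ncf1, minus strand).
Cybb: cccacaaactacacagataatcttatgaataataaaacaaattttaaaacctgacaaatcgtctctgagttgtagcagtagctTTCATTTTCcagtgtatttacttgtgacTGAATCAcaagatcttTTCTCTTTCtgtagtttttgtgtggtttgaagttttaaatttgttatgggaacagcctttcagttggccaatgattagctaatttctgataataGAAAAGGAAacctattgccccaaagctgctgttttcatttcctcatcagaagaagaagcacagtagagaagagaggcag
Ncf1: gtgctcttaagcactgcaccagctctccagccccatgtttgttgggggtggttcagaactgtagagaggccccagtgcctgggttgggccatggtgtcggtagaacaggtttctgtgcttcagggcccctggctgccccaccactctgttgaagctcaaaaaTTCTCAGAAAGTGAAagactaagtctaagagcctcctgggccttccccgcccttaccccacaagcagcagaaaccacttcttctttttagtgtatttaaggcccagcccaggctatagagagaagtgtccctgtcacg

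The Cybb window has IRF matches at -167, -123 and -29 and an AP-1 match at -139, and the Ncf1 window has a STAT match at -88 that overlaps an IRF match at -82. A match describes the letters only.

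Cybb, on chromosome X at 9435252-9487771 (minus strand), was measured at 14.0, 6.82 and 18.2 CPM in Con and 80.2, 152 and 45.7 CPM in DSS. The UA+DSS libraries held 34.1, 16.9 and 13.6 CPM, and the DSS+UA libraries 22.3, 34.6 and 24.5 CPM. The lowest DSS library was above every library of the other groups, and UA+DSS overlapped Con while DSS+UA did not. DSS exceeded Con by a log2 fold change of 2.83 ± 0.52 (edgeR adjusted p = 0.00509), and by 2.27 without DSS 2 (edgeR adjusted p = 0.0104). UA+DSS against DSS gave -2.11 ± 0.51 (edgeR adjusted p = 0.0202); this call was lost without DSS 2, UA+DSS 2 or UA+DSS 3, at edgeR adjusted p of 0.0581, 0.0942 and 0.0706. DSS+UA against DSS gave -1.77 ± 0.50, just missing the threshold at an edgeR adjusted p of 0.0547. Neither UA group differed from Con past the threshold, with log2 fold changes of 0.72 and 1.06 and edgeR adjusted p of 0.556 and 0.151.

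Ncf1, on chromosome 5 at 134220053-134229625 (minus strand), was at 10.7, 4.10 and 6.79 CPM in Con and 40.3, 483 and 25.8 CPM in DSS. The UA+DSS libraries held 15.3, 11.4 and 8.03 CPM, and the DSS+UA libraries 25.5, 21.0 and 22.5 CPM. DSS 2 was 12.0 times the next DSS library for Ncf1, whereas for Cybb it was 1.89 times. All DSS libraries were above all libraries of other groups, by a margin of only 25.8 to 25.5 CPM over DSS+UA. DSS against Con gave a log2 fold change of 4.67 ± 1.02 (edgeR adjusted p = 0.00947), which was 2.19 without DSS 2 (edgeR adjusted p = 0.00516). UA+DSS against DSS gave -3.98 ± 0.98 (edgeR adjusted p = 0.0223), and -1.52 without DSS 2 (edgeR adjusted p = 0.0335). That call was lost without UA+DSS 1, UA+DSS 2 or UA+DSS 3, at edgeR adjusted p of 0.0568, 0.0978 and 0.0830. DSS+UA against DSS gave -2.99 ± 0.94 (edgeR adjusted p = 0.0700), and -0.51 without DSS 2 (edgeR adjusted p = 0.459). The antisense gene Gtf2ird2, whose exons overlap those of Ncf1, was at 43.7 CPM in DSS 2 and 7.81 to 17.3 CPM in the other libraries; 7.45% of the 50-base stretches of Ncf1 are shared with other genes, and how such reads were assigned was not tested.

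Relative to the summed markers of monocytes and macrophages, Cybb varied little. Per 1000 CPM of 10 summed monocyte and macrophage markers, Cybb was at 32.0 ± 4.43 CPM in Con, 35.1 ± 3.97 in DSS, 35.8 ± 3.68 in UA+DSS and 32.7 ± 8.89 in DSS+UA (SD, n = 3 each). The groups overlapped throughout on this scale, while the marker sum itself was 210 to 512 CPM in Con, 1418 to 3826 in DSS, 394 to 852 in UA+DSS and 557 to 1521 in DSS+UA. The Spearman correlation of Cybb with this sum over the 12 libraries was 0.97, and with the neutrophil sum it was 0.64. With Csf1r alone as the scale, the log2 ratio of DSS to Con was 0.41 in place of 0.14. Per 1000 CPM of Csf1r, Cybb was at 372 to 510 CPM in Con and 513 to 693 in DSS+UA, without overlap. The DSS libraries were at 445, 808 and 470 and those of UA+DSS at 477, 466 and 521. On the neutrophil scale Cybb varied more widely, at 122 to 1272 CPM per 1000 CPM of markers in Con and 7.81 to 86.3 in DSS. It was at 108 to 1185 in UA+DSS and 21.2 to 84.1 in DSS+UA.

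Ncf1 followed both the macrophage and the neutrophil markers. Its ratio to 1000 CPM of macrophage markers was 16.8 and 18.2 in DSS 1 and DSS 3, close to 18.0 ± 3.95 in Con, but 126 in DSS 2. On the neutrophil scale DSS 2 did not stand out, at 24.9 CPM per 1000 CPM of markers beside 43.4 and 25.2 in DSS 1 and DSS 3, and DSS+UA was at 24.3, 50.9 and 21.6. Con and UA+DSS, with summed neutrophil markers of 10.6 to 115 and 28.7 to 125 CPM, had higher ratios of 93.2 to 474 and 64.0 to 533. All 10 neutrophil and all 10 macrophage markers were detected. The part of either cell type in the Ncf1 values was not tested further.

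For the epithelial genes the scale was 10 epithelial markers, whose sum was 14370 to 19956 CPM in Con, 7965 to 13283 in DSS, 17164 to 18947 in UA+DSS and 17237 to 27672 in DSS+UA. Per 1000 CPM of these markers Duox2 was at 10.8, 11.2 and 10.8 CPM in the 3 DSS libraries and 3.06, 4.31 and 6.51 in Con. DSS and Con did not overlap on this scale, although they did in CPM. In UA+DSS Duox2 was at 29.1, 7.63 and 10.4, and in DSS+UA at 6.86, 11.4 and 6.05, on both sides of DSS. Duoxa2 was at 0.526 to 1.10 in Con and 2.56 to 4.57 in DSS, again without overlap. In UA+DSS Duoxa2 was at 8.51, 0.971 and 1.97, so UA+DSS 2 lay within the Con range, and in DSS+UA at 2.48, 6.68 and 2.18. The means were 3.82 in UA+DSS and 3.78 in DSS+UA beside 3.67 in DSS. Nox1 was at 1.70 ± 0.346 in Con and 2.29 ± 0.893 in DSS, which overlapped. Noxo1 was at 0.281 ± 0.0900 in Con, 0.145 ± 0.0300 in DSS, 0.196 ± 0.0602 in UA+DSS and 0.105 ± 0.0115 in DSS+UA. The lower Noxo1 level of DSS was still present against these markers, and its DSS+UA value was the lowest of the 4 group means. UA+DSS, at 0.179, 0.263 and 0.146, overlapped DSS, at 0.168, 0.157 and 0.111, although they did not overlap in CPM. Per Epcam alone DSS, at 1.19 to 1.96, also overlapped Con, at 1.87 to 3.38.

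**Figure D3:**
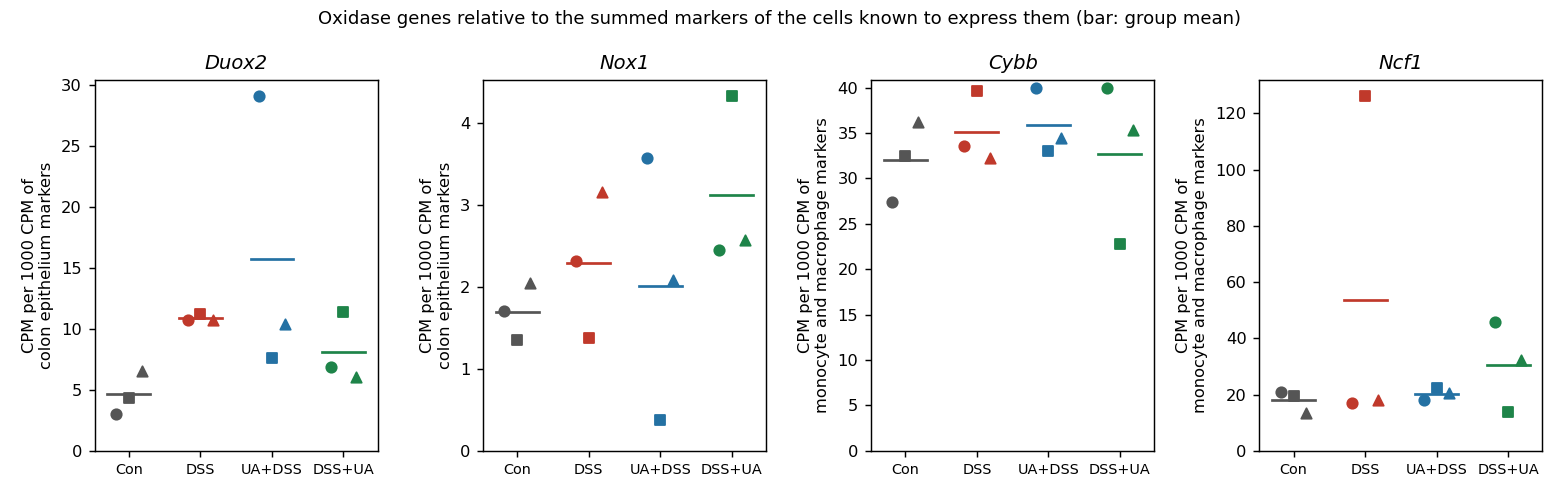
Duox2 and Nox1 per 1000 CPM of epithelial markers, and Cybb and Ncf1 per 1000 CPM of monocyte and macrophage markers, for each library (circle, square and triangle for replicates 1, 2 and 3) with the group mean as a bar. Duox2 is near 11 in all 3 DSS libraries and under 7 in Con, Cybb lies between 22.8 and 40.0 in all 12 libraries, and Ncf1 stands at 126 in DSS 2.

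Nos2, on chromosome 11 at 78920787-78960254 (plus strand), was high in 1 library of each DSS-exposed group. It was measured at 0.62, 1.05 and 2.41 CPM in Con and 30.9, 584 and 16.2 CPM in DSS. The UA+DSS libraries held 116, 3.25 and 6.43 CPM, and the DSS+UA libraries 21.7, 222 and 31.2 CPM. Every DSS-exposed library was above every Con library, and within DSS and within UA+DSS the highest library was 36.0 and 35.8 times the lowest. DSS against Con gave a log2 fold change of 7.27 ± 2.05 (edgeR adjusted p = 0.0263). It was 4.11 without DSS 2 (edgeR adjusted p = 0.106), and the call was also lost without any of the Con libraries (0.0624 to 0.0915). DSS+UA against Con gave 6.06 ± 1.95 (edgeR adjusted p = 0.0543) and UA+DSS against Con 4.94 ± 1.87 (edgeR adjusted p = 0.353). These were 4.28 without DSS+UA 2 and 1.84 without UA+DSS 1. Against DSS the fitted values were -2.33 ± 1.59 in UA+DSS and -1.20 ± 1.53 in DSS+UA, with edgeR adjusted p of 0.334 and 0.631. Both turned positive without DSS 2, at 0.82 and 1.97.

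The libraries rich in Nos2 differed in the other genes. UA+DSS 1 and DSS+UA 2, at 116 and 222 CPM of Nos2, were also the highest of their groups for Duox2, Duoxa2 and Nox1, for Cybb (34.1 and 34.6 CPM) and for the summed macrophage markers (852 and 1521 CPM). For Ncf1 UA+DSS 1 was the highest of its group, at 15.3 CPM, and DSS+UA 2 the lowest, at 21.0 CPM. DSS 2, at 584 CPM of Nos2, was the highest library of all for Cybb, Ncf1, Sod2 and Acod1 and the lowest DSS library for Duox2 and Nox1. Over the 12 libraries the Pearson correlation of log2 CPM was 0.83 between Nos2 and Duoxa2, 0.56 between Nos2 and Duox2, 0.81 between Nos2 and Cybb and 0.77 between Nos2 and Ncf1. Without DSS 2 these were 0.98, 0.82, 0.72 and 0.70. The points share their tissue, library and treatment group, so these are descriptions. The Spearman correlation of Nos2 was 0.81 with the summed macrophage markers, 0.62 with the neutrophil and -0.05 with the epithelial markers. Of the oxidase pairs, Cybb with Ncf1 was at a Pearson correlation of 0.91 and Duox2 with Duoxa2 at 0.88. Within the 4 epithelial genes the other pairs ranged from -0.42 for Duoxa2 with Noxo1 to 0.63 for Duoxa2 with Nox1. Between the epithelial and phagocyte oxidase genes the values ran from -0.75, for Noxo1 with Cybb and with Ncf1, to 0.46 for Duoxa2 with Cybb. Without DSS 2, Duox2 with Cybb went from 0.16 to 0.40 and Nox1 with Ncf1 from -0.23 to 0.30.

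**Figure D4:**
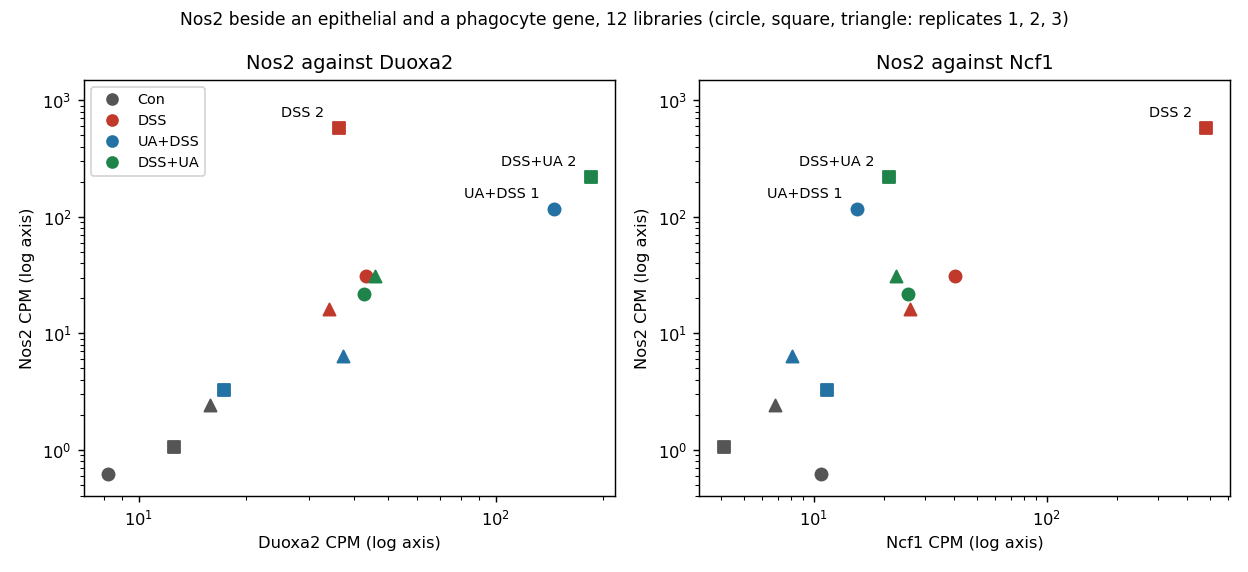
Nos2 CPM against Duoxa2 CPM (left) and Ncf1 CPM (right), both axes log, for the 12 libraries, colored by group. In the left panel 11 libraries follow a rising band and DSS 2 (36.4 CPM of Duoxa2, 584 of Nos2) stands above it; in the right panel UA+DSS 1 and DSS+UA 2 stand above libraries with similar Ncf1.

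Sod2, on chromosome 17 at 13006846-13040063 (plus strand), had the narrowest range of the DSS-raised genes. Of the 50-base stretches of its exons, 21.0% also occur in other genes. Its CPM was 95.6, 110 and 100 in Con, 175, 389 and 166 in DSS, 97.0, 103 and 111 in UA+DSS, and 128, 120 and 135 in DSS+UA. The DSS libraries were above all others, the DSS+UA libraries formed a separate range above Con and UA+DSS, and those overlapped each other. DSS against Con gave a log2 fold change of 1.26 ± 0.28 (edgeR adjusted p = 0.00919), which was 0.74 without DSS 2 (edgeR adjusted p = 0.00645). UA+DSS against DSS gave -1.23 ± 0.28 (edgeR adjusted p = 0.0165), or -0.72 without DSS 2 (edgeR adjusted p = 0.0168), and was lost only without UA+DSS 2 when libraries were left out singly (edgeR adjusted p = 0.0748). DSS+UA against DSS gave -0.93 ± 0.28 (edgeR adjusted p = 0.0595), or -0.40 without DSS 2. UA+DSS against Con was at 0.03 ± 0.27 (edgeR adjusted p = 0.977) and DSS+UA against Con at 0.32 ± 0.27 (edgeR adjusted p = 0.416). The Nox1 window also held an NF-kappaB match, at -91, and Nox1 was not called in DSS against Con. The Sod2 promoter, at chr17:13007589-13007888 (plus strand), is shown for an NF-kappaB match at -83, with a STAT match at -185.
Sod2: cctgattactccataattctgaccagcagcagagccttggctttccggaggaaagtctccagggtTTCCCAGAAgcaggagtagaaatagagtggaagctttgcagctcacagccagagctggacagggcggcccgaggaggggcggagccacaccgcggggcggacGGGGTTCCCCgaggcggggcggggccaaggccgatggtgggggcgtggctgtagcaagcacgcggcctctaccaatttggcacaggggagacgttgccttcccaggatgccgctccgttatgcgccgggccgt

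Acod1, the itaconate-forming decarboxylase (chromosome 14, 103046977-103056573, plus strand), covered the widest range of the 9. It was at 0.41, 0.17 and 0.11 CPM in Con, 13 counts over the 3 libraries, and at 26.0, 1647 and 15.4 CPM in DSS. The UA+DSS libraries held 1.22, 0.06 and 1.70 CPM, and the DSS+UA libraries 31.9, 8.54 and 58.3 CPM. Both DSS and DSS+UA lay wholly above Con and UA+DSS, which overlapped each other. DSS against Con gave a log2 fold change of 11.21 ± 2.27 (edgeR adjusted p = 0.00716), and 6.44 without DSS 2 (edgeR adjusted p = 0.00608). UA+DSS against DSS gave -9.11 ± 2.02 (edgeR adjusted p = 0.0166), and -4.36 without DSS 2 (edgeR adjusted p = 0.0267). That call was lost without UA+DSS 1, UA+DSS 2 or UA+DSS 3, at edgeR adjusted p of 0.0521 to 0.0801. DSS+UA against DSS gave -4.09 ± 1.57 (edgeR adjusted p = 0.115), which turned to 0.68 without DSS 2 (edgeR adjusted p = 0.682).

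In the later UA regimen Acod1 stayed above Con, at a log2 fold change of 7.11 ± 2.03 (edgeR adjusted p = 0.0371). This call was lost without any of the Con libraries, UA+DSS 1, UA+DSS 3, DSS+UA 1 or DSS+UA 3 (edgeR adjusted p of 0.0545 to 0.115). It was also lost with limma-voom (adjusted p = 0.280). So it was with no filter on low counts, the replicate block or the position score as a covariate (edgeR adjusted p of 0.110, 0.0592 and 0.179). UA+DSS against DSS+UA gave -5.02 ± 1.74 (edgeR adjusted p = 0.0714). The Spearman correlation of Acod1 was 0.92 with the summed neutrophil markers and 0.70 with the macrophage markers over the 12 libraries, and for Sod2 these were 0.81 and 0.64. Neutrophil marker sums were 412 to 1049 CPM in DSS+UA and 28.7 to 125 CPM in UA+DSS. Their part in the Acod1 difference between the regimens was not tested.

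The other genes of these pathways were followed as lists of 56 genes, of which 52 were tested. In DSS against Con 18 were raised and 4 lowered, with a median log2 fold change of 0.53. In UA+DSS against DSS 5 were raised and 12 lowered, and of the 9 called for DSS+UA against DSS 5 were raised and 4 lowered. Against Con, UA+DSS had 0 called by edgeR (7 at an unadjusted p under 0.05, 1 by DESeq2, 0 by limma-voom) and DSS+UA had 9 raised and 1 lowered. The background shares are those given above for each comparison, and they apply to each list below. For DSS+UA against DSS the share, 7.54% of all tested genes called, was not split by direction. Without UA+DSS 2 the count for UA+DSS against DSS was 2 in place of 17, without UA+DSS 3 it was 7, without UA+DSS 1 it was 10, without DSS 2 it was 11, and with the position score as a covariate it was 0. The 9 calls of DSS+UA against DSS became 0 without DSS+UA 2 or DSS+UA 3 and 1 without DSS 2 or UA+DSS 3. They became 3 without UA+DSS 1 and 4 without Con 2, DSS 1 or UA+DSS 2. The count was 1 with the position score as a covariate. The 22 calls of DSS against Con became 13 without Con 2, and the 10 of DSS+UA against Con became 5 without DSS+UA 2, 6 without Con 2 or Con 3 and 17 without DSS 2.

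Among 8 oxidase subunits and helpers, 5 were raised and 1 lowered in DSS against Con. Rac2, the GTPase that switches on the phagocyte oxidase, Ncf4 (p40phox) and Hvcn1, the proton channel that balances its charge, rose by log2 fold changes of 3.68, 3.51 and 2.02, with edgeR adjusted p of 0.00652, 0.00670 and 0.00699. The same 3 were lower in UA+DSS than in DSS by log2 fold changes of -3.12, -3.10 and -1.89, with edgeR adjusted p of 0.0173, 0.0163 and 0.0156. Noxa1, the activator that works with NOXO1 on NOX1, was singled out after its values were seen: it was at 63.2 to 75.7 CPM in Con, 33.7, 21.8 and 57.7 CPM in DSS and 65.7 to 104 CPM in UA+DSS. Its log2 fold change was -0.90 for DSS against Con (edgeR adjusted p = 0.0486) and 1.13 for UA+DSS against DSS (edgeR adjusted p = 0.0293). For DSS+UA against DSS edgeR called 0 of the 8, with 4 at an unadjusted p under 0.05, 2 called by DESeq2 and 0 by limma-voom. In DSS+UA against Con edgeR called Rac1 alone of the 8 and DESeq2 called 5; Rac1 was at a log2 fold change of 0.67 (edgeR adjusted p = 0.0286). Antisense genes share 39.7% of the 50-base stretches of Hvcn1 and 50.3% of those of Rac1.

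Of the remaining NADPH oxidases, Duox1 was at 0.10 to 0.909 CPM in all libraries and was not called in any comparison, and Nox3 had 0 counts. Nox4, a constitutively active peroxide-forming oxidase, was lower in DSS+UA than in DSS and Con, at 0.158, 0.247 and 0.111 CPM against 1.30, 0.551 and 1.80 in DSS and 0.362, 1.05 and 1.23 in Con. Its log2 fold change was -2.78 ± 0.65 against DSS and -2.32 ± 0.66 against Con, with edgeR adjusted p of 0.0343 and 0.0345. These values rest on 9 counts over the 3 DSS+UA libraries, and both calls were lost in several settings. With limma-voom the adjusted p were 0.0576 and 0.0774, and with the position score as a covariate the edgeR adjusted p were 0.0797 and 0.235, the value against Con then being -1.35. The call against DSS was lost without DSS 1, DSS 3, UA+DSS 2, UA+DSS 3 or any DSS+UA library (edgeR adjusted p of 0.0517 to 0.128), and that against Con without Con 2, Con 3 or any DSS+UA library (0.0578 to 0.121).

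Of 14 genes of nitric oxide and arginine handling, 6 were raised in DSS against Con. The 3 of smallest p were Ass1, which rebuilds arginine from citrulline, Gch1, which makes the tetrahydrobiopterin cofactor, and Nos3, the endothelial synthase, with log2 fold changes of 1.56, 1.10 and 1.70 and edgeR adjusted p of 0.00575, 0.00872 and 0.00971. Ass1, Nos3 and the arginase Arg1 were lower in UA+DSS than in DSS by -1.68, -1.42 and -3.68 (edgeR adjusted p of 0.0101, 0.0278 and 0.0426). Arg1 was at 4.09, 139 and 12.3 CPM in DSS, so DSS 2 was again the highest. In DSS+UA against DSS, Nos3 and the arginine carrier Slc7a2 were lower (-1.70 and -2.22) and Spr, an enzyme of the same cofactor route, was higher (0.66), with edgeR adjusted p of 0.0308, 0.0417 and 0.0457. Ass1 and Gch1 stood apart from this: they were higher in DSS+UA than in Con, at log2 fold changes of 1.74 and 1.52 and edgeR adjusted p of 0.00675 and 0.00528. The DSS+UA libraries held 84.5, 56.1 and 68.9 CPM of Ass1 and those of UA+DSS 15.5, 17.7 and 24.7 CPM, without overlap; 38.6% of the 50-base stretches of Ass1 are shared with Gm5424. Asl, which completes arginine synthesis after Ass1, was also above Con in DSS+UA (0.61, edgeR adjusted p = 0.0301).

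Of 9 genes that remove superoxide and peroxide, 3 were raised in DSS: Gpx3, Sod3 and Gpx2, by log2 fold changes of 2.24, 2.73 and 1.62 and edgeR adjusted p of 0.00132, 0.00346 and 0.00817. Sod3, the extracellular dismutase, was at 94.2, 184 and 139 CPM in DSS and 10.7 to 39.6 CPM in UA+DSS. Gpx2, the peroxidase of gut epithelium, was at 294 to 368 CPM in Con, 926 to 1067 CPM in DSS, 152 to 479 CPM in UA+DSS and 1640 to 1722 CPM in DSS+UA. In UA+DSS against DSS Sod3 and Gpx2 were lower, by -2.42 and -1.47, and Cat, the catalase gene, was higher, by 0.77 (edgeR adjusted p of 0.0112, 0.0181 and 0.0163). Gpx3 was lower in DSS+UA than in DSS by -1.17 (edgeR adjusted p = 0.0289). Against Con, DSS+UA had 4 of the 9 raised, led by Gpx2 at a log2 fold change of 2.38, Prdx1 at 0.93 and Gpx1 at 0.95, with edgeR adjusted p of 0.00504, 0.00909 and 0.0167.

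Around itaconate, 9 genes of the neighbouring mitochondrial steps were followed. In DSS against Con 3 were lowered: Clybl, which clears the itaconate product citramalyl-CoA, Suclg1 of succinyl-CoA ligase and Sdhb of succinate dehydrogenase, the enzyme that itaconate inhibits, by log2 fold changes of -1.37, -1.0 and -0.71 and edgeR adjusted p of 0.0108, 0.0169 and 0.0274. The same 3 were higher in UA+DSS than in DSS, by 1.39, 0.86 and 0.82 (edgeR adjusted p of 0.0167, 0.0397 and 0.0228). In DSS+UA against DSS 4 were higher, among them Sdhd, Sdhc and Sdhb, by 0.73, 0.83 and 0.80 (edgeR adjusted p of 0.0398, 0.0401 and 0.0431). DSS 2 had the lowest Sdhb of all libraries, at 115 CPM beside 168 and 174 CPM in the other DSS libraries, and epithelial marker sums were also lowest in DSS 2. The part of epithelial content in these values was not tested.

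Of 9 inducing cytokines and transcription factors, 8 were tested and 4 were raised in DSS. Il1b was at 0.444 to 1.60 CPM in Con and 120, 3011 and 150 CPM in DSS, with a log2 fold change of 10.31 (edgeR adjusted p = 0.00332). Nfkb1 and Tnf rose by 0.80 and 5.71 (edgeR adjusted p of 0.0110 and 0.0208), and Tnf was at 249 CPM in DSS 2 against 6.54 and 5.07 CPM in DSS 1 and DSS 3. Il1b and Tnf were lower in UA+DSS than in DSS by -7.00 and -4.75 (edgeR adjusted p of 0.0137 and 0.0435). Il1b was still above Con in DSS+UA, by 6.93 (edgeR adjusted p = 0.0132), at 68.0, 77.8 and 171 CPM. Of the peroxidases Mpo, Epx and Lpo, only Lpo was tested, and it was not called in the comparisons with Con or DSS.

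The genes whose log2 CPM followed each member most closely over the 12 libraries were ranked by Pearson correlation, as a description. Cybb was closest to Fcgr3, an Fc receptor of myeloid cells, Cd84 and Nckap1l (0.99 each), and Ncf1 to Fmnl1 (0.99), Igsf6 (0.98) and Lilr4b (0.98). Acod1 was closest to Hdc (0.98), which is on the neutrophil marker list, the chemokine gene Cxcl3 (0.98) and the heme exporter gene Flvcr1 (0.98). Sod2 was closest to Ier3, Tlr6 and Atxn10 (0.98 each), and Nos2 to Gm16685 (0.97), Sdcbp (0.95) and Zc3h12a (0.93). The epithelial genes had other neighbours: Ak4 (0.93), the hexokinase gene Hk2 (0.90) and Ceacam12 (0.89) for Duox2, and Hs6st1, the mast cell protease gene Mcpt1 and Cd38 (0.91 each) for Duoxa2. Nox1 was closest to BC030870 (0.93), Aacs (0.90) and Gm3571 (0.90), and Noxo1 to Pigp (0.98), Mettl27 (0.97) and Gm15912 (0.97).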

How the data were processed

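RNA of 12 colons was sequenced. Reads were mapped to GRCm38, and the authors deposited raw whole-number counts for each Ensembl gene; per the labels, the processing tools were FastQC, HISAT2 and Cuffdiff. Versions, annotation, strand and the handling of shared reads were not given in the sources used here. Totals were 15566216 to 19498383 counts per library.

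With edgeR 4.0.16 in R 4.3.3, 17658 genes (99.8% of counts) were kept by filterByExpr, scaled by TMM and fitted in a single quasi-likelihood model of the 4 groups, and p was adjusted over the tested genes (Benjamini-Hochberg). CPM was computed from these factors, and log2 CPM used a prior count of 2. The script was tested on simulated data. Alternatives were DESeq2 1.42.0, limma-voom (limma 3.58.1), other scalings and filters, a fit of the groups compared only, the replicate block, a position covariate and leaving out each library.

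The replicates are separate colons. Members, lists and markers were chosen with earlier results of these data known, so no list supports another. All 9 members were named, and of each pathway list the called genes of smallest p, up to 3, plus Duox1 and Nox4; 3 genes most like each member were those with mean log2 CPM of at least 1. Gene positions are from GENCODE M21 (GRCm38), and promoters from RefSeq (GRCm38.p6) matched 8 of 9 members.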

Additional observations from a re-analysis of the deposited data

Results flagged for a closer look

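In 6 of the 52 tested genes of the wider pathway lists (11.5%, where 16.8% of all tested genes were called), UA begun before DSS and UA begun after it differed in a direct test (edgeR adjusted p under 0.05). In UA+DSS against DSS+UA the log2 fold change was -1.85 for Ass1, -0.90 for Gch1, 0.84 for Cat, -0.96 for Gpx1, -2.23 for Gpx2 and -0.70 for Prdx1. These were 2 of the 14 genes of nitric oxide and arginine handling, both lower, and 4 of the 9 of superoxide and peroxide removal, 3 lower and 1, Cat, higher. Single libraries ended calls: without UA+DSS 1 Gpx1 was lost, and without UA+DSS 3, DSS+UA 2 or DSS+UA 3 Gch1 and Prdx1 were. With the position score as a covariate, 0 of the wider genes were called in this comparison, and without UA+DSS 2 there were 2, Ass1 and Gpx2. The position score separated these groups completely, so its part cannot be told apart from that of the regimen.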

How the results depend on the processing

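The number of the 9 members called ranged, over fits with 1 library left out, from 0 to 5 for UA+DSS against DSS (5 with all), 0 to 3 for DSS+UA against DSS (0), 0 to 4 for DSS+UA against Con (2) and 0 to 1 in UA+DSS against DSS+UA (0). For the wider pathway genes it was 13 to 24 in DSS against Con (22 with all), 2 to 23 for UA+DSS against DSS (17), 0 to 13 for DSS+UA against DSS (9), 5 to 17 in DSS+UA against Con (10) and 2 to 12 in UA+DSS against DSS+UA (6). Over all tested genes, UA+DSS against DSS gave 183 to 4112 calls and DSS+UA against DSS 25 to 1825.

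Other settings moved member counts as follows. DSS against Con had 4 in place of 6 with limma-voom (Nos2 and Acod1 lost) and with DESeq2, which gave neither of these an adjusted p in any comparison. It had 5 with no filter (Nos2 lost) and 5 with at least 10 counts in every library, where Acod1 was left out before testing. With only the groups compared it also had 5, with Ncf1 and Sod2 lost and Duoxa2 gained. UA+DSS against DSS had 3 with limma-voom, 2 with no filter, 0 with only the groups compared, and 0 with the position covariate. DSS+UA against DSS had 1 with library size only, 3 with DESeq2 and 2 with at least 10 counts in every library. For UA+DSS against Con DESeq2 called 2 members and 1 pathway gene. In DSS+UA against Con they were 0 with limma-voom, no filter or the position covariate and 4 with only the groups compared, which gave 2 in UA+DSS against DSS+UA. Pathway counts with only the groups compared were 11, 6 and 2 in the first 3 comparisons and 10 between the regimens. With the position covariate they were 0 and 1 for UA+DSS and DSS+UA against DSS and 0 between the regimens. DESeq2 gave 15 and 16 for DSS+UA against DSS and Con. Apart from the filtering out of Acod1, the causes were not tested.

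Replicate numbers did not pair the samples: 5 of 18 same-numbered pairs correlated above 0.1 (-0.22 to 0.19). With the replicate block the members called were 3 in UA+DSS against DSS and 0 in DSS+UA against Con, and 1 pathway gene was called in DSS+UA against DSS. Nos2 in DSS against Con was then at an edgeR adjusted p of 0.0707.

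Reversed log2 fold changes were of values not called. With 1 library left out, Nox1 for DSS against Con ranged from -0.58 to 0.30 (without DSS 2), and with library size only it was 0.0017. For UA+DSS against DSS the ranges were -0.47 (without UA+DSS 1) to 1.27 for Duoxa2, -0.19 (without UA+DSS 1) to 0.95 for Nox1 and -5.43 to 0.82 (without DSS 2) for Nos2. For DSS+UA against DSS they were -3.02 to 1.97 for Nos2 and -4.79 to 0.68 for Acod1, both highest without DSS 2. For UA+DSS against Con, Nox1 ranged from -0.25 (without UA+DSS 1) to 0.87 and was -0.12 with limma-voom, and Sod2 ranged from -0.026 to 0.088 and was -0.013 with upper-quartile factors and -0.073 with the position covariate. Between the regimens, Duox2 ranged from -0.16 (without UA+DSS 1) to 1.16, Duoxa2 from -1.74 to 0.57 (without DSS+UA 2) and Nos2 from -4.23 to 0.64 (without DSS+UA 2), and with the position covariate Duox2 was -0.36 and Cybb 0.069.

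Per Epcam alone, the log2 ratio of DSS+UA to Con was 1.32 for Nox1 and -0.97 for Noxo1, and per Csf1r alone that of Cybb was 0.41 in DSS to Con, -0.23 in UA+DSS to DSS and 0.44 in DSS+UA to Con. All 36 group levels moved by less than 1 SD with library size only. That SD is the spread of the libraries of a group and exceeded the mean for Acod1 and Nos2 in DSS, so smaller shifts would not show. With 3 libraries a group, an exact permutation test cannot go below 0.1.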
